A study of Mus musculus with 4 samples.

Results

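Transcripts of cadherins and of cell adhesion molecules of the immunoglobulin superfamily were examined in laser-captured tubules of the developing mouse kidney. The members were all probe sets whose platform gene symbol was Cdh or Pcdh followed only by a number, or was Nrcam, L1cam, Ncam1, Alcam, Chl1, Epcam, Nfasc or Cntn1, which gave 100 of 45101 probe sets and 40 of 18193 genes with a single symbol. The study had 4 oligonucleotide arrays, 1 from the cortical collecting duct (numbered replicate 3) and 3 from the anlage of the loop of Henle (numbered 1 to 3). All were from wild-type embryos of the outbred CD-1 stock at E15.5 (embryonic days, Theiler stage 23), of unknown sex and with no treatment named. Each array held a pool of about 50 laser-cut sections taken from 5 kidneys, whose RNA was amplified over 2 rounds. Whether pools shared animals is not stated, so p-values measure the spread between the anlage arrays only, which may be partly technical.

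Cadherins are calcium-dependent adhesion proteins that bind the same or a related cadherin on the next cell, and classical cadherins are tied to actin through catenins at the adherens junction. In kidney development the condensing mesenchyme changes its set of cadherins as it turns into epithelium, and E-cadherin, K-cadherin (Cdh6) and kidney-specific cadherin (Cdh16) mark different stretches of tubule. Adhesion molecules of the L1 and NCAM type carry immunoglobulin domains, bind without calcium and are best known from axons, though L1cam is also used as a marker of ureteric bud epithelium. Epcam, grouped with them here, is an epithelial adhesion molecule that belongs to neither family.

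Upstream sequences are printed for 4 members, 2 whose values were below all anlage arrays in the collecting duct (Nrcam and Pcdh17) and 2 whose values were above (L1cam and Alcam). They come from the RefSeq promoter table (build GRCm38.p6), which matched 27 of the 40 genes, and only the bases before the annotated start of the gene are shown, 5′ to 3′ on the gene's strand. Positions are chr12:44328635-44328785 on the plus strand for Nrcam, chr14:84443313-84443562 on the plus strand for Pcdh17, chrX:73880839-73881084 on the minus strand for L1cam and chr16:52453082-52453331 on the minus strand for Alcam. Capitals mark matches on either strand to 4 motifs: the E-box CAGGTG, which Snail and Zeb repressors can bind, the GATA motif (GATA with an A or T before it and an A or G after it), the AP-2 motif GCCNNNGGC and the GC box GGGCGG.
Nrcam: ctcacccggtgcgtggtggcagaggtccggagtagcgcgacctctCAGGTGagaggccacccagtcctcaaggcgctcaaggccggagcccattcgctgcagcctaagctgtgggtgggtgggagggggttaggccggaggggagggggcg
Pcdh17: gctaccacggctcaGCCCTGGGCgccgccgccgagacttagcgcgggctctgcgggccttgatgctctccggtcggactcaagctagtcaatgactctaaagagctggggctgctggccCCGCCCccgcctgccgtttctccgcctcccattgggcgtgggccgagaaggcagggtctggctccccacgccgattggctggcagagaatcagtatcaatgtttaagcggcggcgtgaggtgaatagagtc
L1cam: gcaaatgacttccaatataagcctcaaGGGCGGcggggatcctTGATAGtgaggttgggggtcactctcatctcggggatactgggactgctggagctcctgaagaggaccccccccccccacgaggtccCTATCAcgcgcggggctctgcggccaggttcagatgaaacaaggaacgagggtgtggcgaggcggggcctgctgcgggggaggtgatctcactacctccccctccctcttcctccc
Alcam: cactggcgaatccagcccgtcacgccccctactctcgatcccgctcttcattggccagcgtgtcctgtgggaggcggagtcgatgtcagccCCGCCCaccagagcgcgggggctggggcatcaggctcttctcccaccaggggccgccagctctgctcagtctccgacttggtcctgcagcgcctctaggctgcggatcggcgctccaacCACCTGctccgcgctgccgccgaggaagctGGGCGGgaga
The 151 bases of Nrcam held 1 E-box, a motif found in 10.9% of all 32851 promoter stretches of that length, and no match to the other motifs. The 250 bases of Pcdh17 held 1 AP-2 motif (13.7% of stretches of that length) and 1 GC box (32.7%). The 246 bases of L1cam held 2 GATA motifs (26.3%) and 1 GC box (32.2%). The 250 bases of Alcam held 1 E-box (17.2%) and 2 GC boxes (32.7%). No match overlapped another motif. Each share is over the first bases of every promoter entry, taken to that length, which need not end at the start of its gene. These matches describe the letters only.

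The adhesion genes shared no direction between the segments. Values were higher in the collecting duct for 14 of the 27 tested (51.9%, against 45.1% of all genes tested). They were lower for 13 (48.1%, against 54.9%). The 4 largest differences in each direction were Nrcam, Pcdh17, Cntn1 and Cdh6, with values lower in the collecting duct array, and L1cam, Pcdh7, Cdh16 and Alcam, with values higher there. Values are given as log2(signal + 109.6) of the brightest probe set of each gene after quantile normalization, and differences are collecting duct minus the anlage mean on this log2 scale, which understates the change of a dim gene. Of the 40 genes, 27 had a mean at or above 8.416, the 40th percentile of all probe sets, and were tested with limma. The other 13 were dimmer than this limit and were not tested.

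At an adjusted p of 0.05 over all 12642 genes, limma called 0 of the 27 genes higher and 0 lower, and it called 0% of all genes in either direction. Before adjustment, 1 member was higher at p under 0.05 (L1cam) and 4 were lower (Nrcam, Pcdh17, Cdh6 and Cntn1), or 3.7% and 14.8% of the members tested, beside 1.18% and 2.23% of all genes tested. The limit for testing is set on the mean of 1 collecting duct and 3 anlage arrays, for members and all genes alike. It therefore favours genes bright in the anlage, and higher and lower counts were not equally open. Nrcam and Cntn1, at 8.01 and 8.03 in the collecting duct, were under this limit there and entered through their anlage values. Leaving out an anlage array moved the count of members at unadjusted p under 0.05. In both directions together it was 9 of 27 without array 1 (33.3%, against 10.9% of all genes), 4 of 26 without array 2 (15.4%, against 3.74%) and 2 of 28 without array 3 (7.14%, against 1.53%). Without array 2 the fit called 0.112% of all genes at the adjusted threshold, and 0 members. The collecting duct value lay above all 3 anlage arrays for 6 members (22.2%, against 17.3% of all genes tested) and below all 3 for 6 (22.2%, against 24.3%). Over all 40 genes, tested or not, it lay above for 9 (22.5%, against 18.2% of all genes) and below for 10 (25%, against 25.2%). The median difference of the tested members was 0.02, against −0.065 for all genes tested. The smallest p of an exact permutation test of a single gene is 0.25 with 1 array against 3, so no such test was run.

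**Figure D1:**
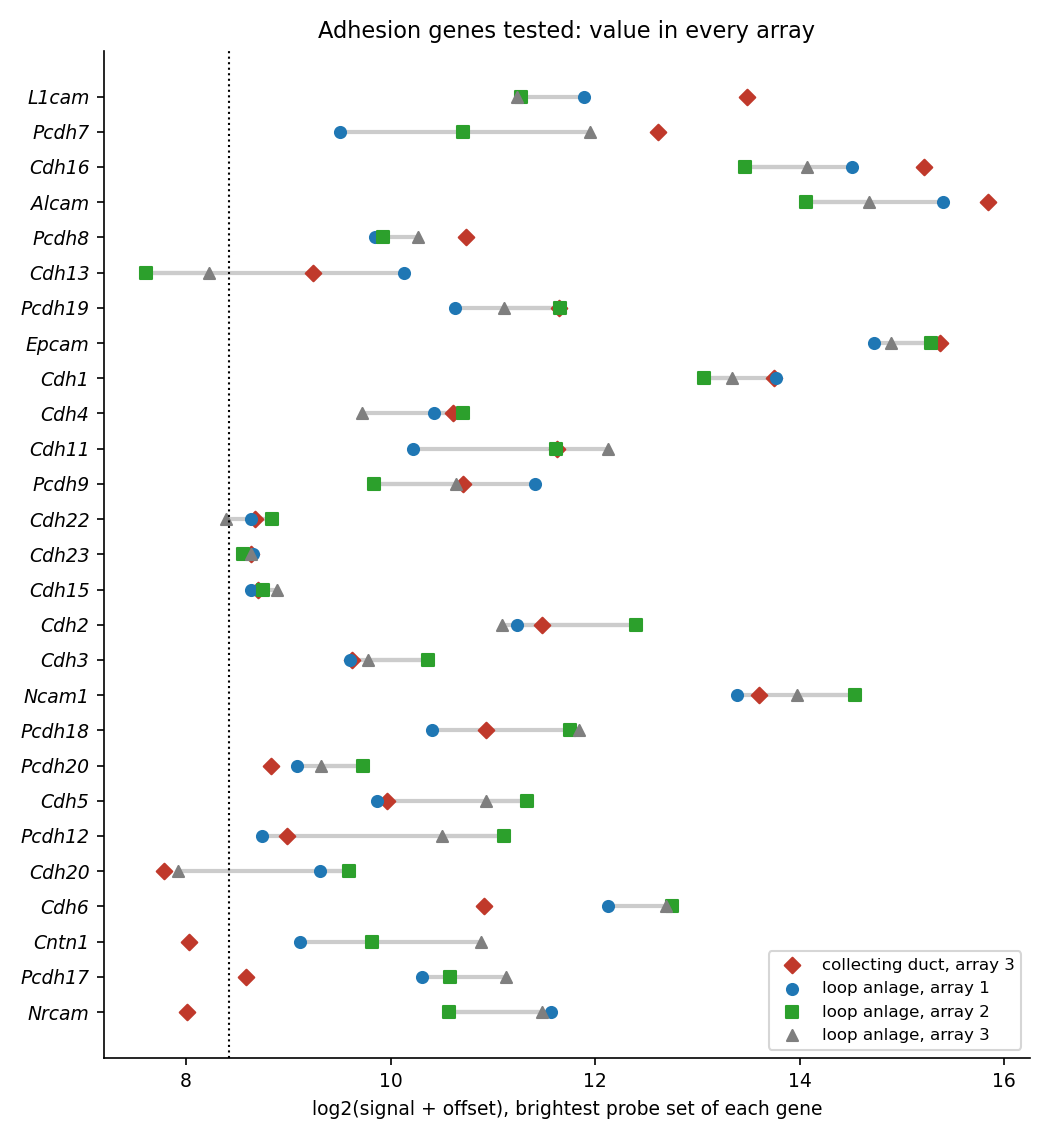
Log2(signal + 109.6) of the brightest probe set of each of the 27 tested adhesion genes (rows, ordered by difference) in the collecting duct array (red diamonds) and the 3 loop anlage arrays (other symbols, joined by a grey bar). The dotted line is the dim limit of 8.416, and positions can be compared within a row only. The red diamond lies right of the grey bar for 6 genes, L1cam farthest, and left of it for 6, Nrcam farthest.

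**Figure D2:**
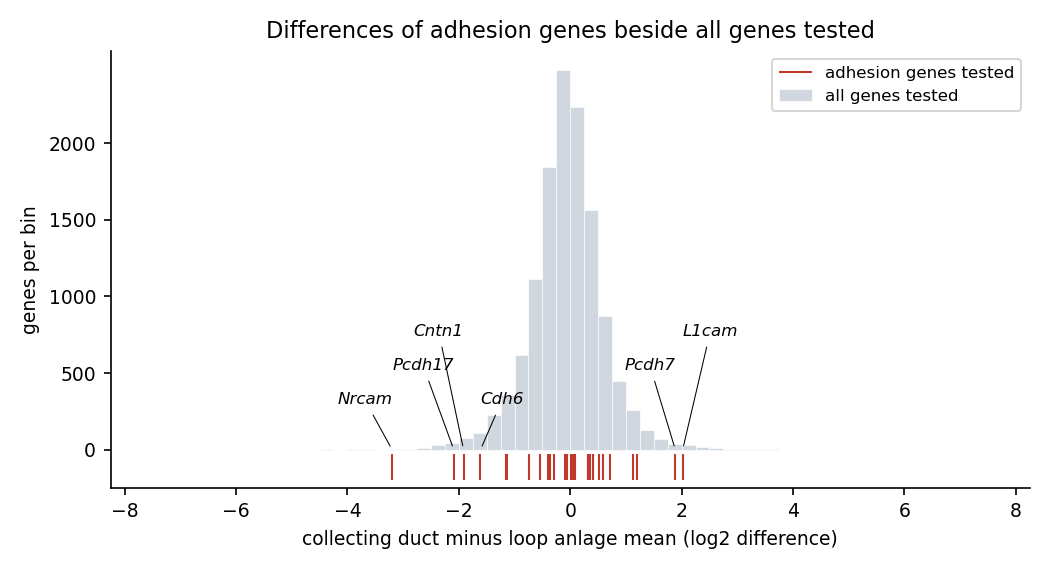
Histogram of the log2 difference, collecting duct minus anlage mean, for all 12642 genes tested (grey, bins 0.25 wide), with a red tick for each of the 27 adhesion genes. The ticks spread on both sides of 0, from −3.20 for Nrcam to 2.02 for L1cam.

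Segment markers, with 1 exception, lay on the side the labels name. Of 10 collecting duct markers 9 lay above all anlage arrays in the collecting duct array, and all 9 loop markers lay below. Signs of RNA quality differed within the anlage group. For Gapdh the signal at the 3′ end over that at the 5′ end, a ratio that grows when transcripts are cut short, was 12.05 in the collecting duct and 10.25, 54.08 and 26.02 in the anlage arrays 1, 2 and 3. Across the anlage, 7 of the 27 members had values in the reverse order of this ratio (25.9%, against 17.5% of all genes tested), among them Cdh1, Cdh16, Alcam and Nrcam, and 8 had values in its order (29.6%, against 34.4%), among them Cdh6, Cdh5 and Ncam1. The summed signal of the 9 loop markers was 88852, 21144 and 70288 in anlage arrays 1, 2 and 3, against 2523 in the collecting duct. Across the anlage it also ran in the reverse order of the Gapdh ratio, so RNA quality and loop tissue content cannot be told apart by this order. The part of either in the differences was not tested.

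For all 5 classical type I cadherins the collecting duct array lay inside the anlage range. Cdh1 (E-cadherin, the adherens junction cadherin of most epithelia) stood at 13.75 in the collecting duct and at 13.77, 13.06 and 13.34 in anlage arrays 1, 2 and 3. Its difference was 0.36 ± 0.48 (SE, 95% interval from the fit −0.81 to 1.53), which did not pass. Scaled to a common array median the difference was 0.01.

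Cdh2 (N-cadherin, of mesenchyme and neural tissue) stood at 11.48 in the collecting duct against 11.23, 12.40 and 11.09, highest in anlage array 2. Cdh3 (P-cadherin), the neighbour of Cdh1 in the RefSeq gene order, stood at 9.62 against 9.60, 10.36 and 9.78. Cdh4 (R-cadherin) stood at 10.61 against 10.43, 10.71 and 9.72. For the brightest probe sets of these genes anlage array 2 was the highest of the 4 arrays, while for Cdh1 it was the lowest. The second probe sets of Cdh2 and Cdh3 were also highest in anlage array 2. A second probe set of Cdh4 was lowest there, at 10.14 in the collecting duct against 12.11, 9.30 and 9.92, a difference of −0.30. Cdh15 (M-cadherin, a cadherin of muscle precursors) was close to the dim limit and flat, at 8.70 against 8.63 to 8.89.

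Among type II cadherins, the value of Cdh6 was lower in the collecting duct, though it did not pass. Cdh6 (K-cadherin, known from nephron epithelium as it forms) stood at 10.91 in the collecting duct and at 12.13, 12.75 and 12.69 in the anlage, so the collecting duct lay 1.22 or more under every anlage array. The deposited signals were 1906 in the collecting duct and 4188, 7502 and 6510 in the anlage. The difference was −1.61 ± 0.53 (SE), a 3.05-fold lower value (limma, unadjusted p = 0.023, adjusted p = 1), and ranged from −1.91 to −1.40 as anlage arrays were left out in turn. Its second probe set also lay below all 3 anlage arrays, at 9.04 against 10.21, 9.57 and 9.56, with a smaller difference of −0.74. In the deposited signals, before quantile normalization, that probe set was not below all 3, at 461 against 1302, 418 and 595.

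The other type II cadherins tested showed no such gap. Cdh20 lay below all 3 anlage arrays, at 7.79 against 9.31, 9.59 and 7.92, but anlage array 3 was within 0.13 of the collecting duct and both values were under the dim limit. Cdh11 (OB-cadherin, a cadherin of mesenchyme) stood at 11.63 against 10.21, 11.61 and 12.13, inside the anlage range, and its 2 probe sets had opposite signs (0.31 and −0.47). Cdh22 stood at 8.67 against 8.63, 8.84 and 8.39.

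Cdh5 (VE-cadherin, the junction protein of endothelium) stood at 9.96 in the collecting duct and at 9.86, 11.33 and 10.93 in the anlage. Anlage array 1 was as low as the collecting duct, and arrays 2 and 3 were higher. Its difference of −0.74 ± 0.71 (SE) became −1.26 when anlage array 1 was left out and −0.40 when array 2 was, and the mean of its 2 probe sets gave −0.24. Endothelial markers differed in the same direction. Of 10 markers 8 were tested, all 8 with lower values in the collecting duct and 6 of them below all 3 anlage arrays (24.3% of all genes tested lay below). The summed signal of the 10 was 5226 against 9744, 16333 and 20028. In the collecting duct Tie1, at 6.87, was near the lowest value this scale can take, 6.78, and Pecam1, at 7.24, was under the dim limit. The part of endothelial RNA in the Cdh5 values was not tested. In such bulk samples fewer cells of a type and less RNA per cell cannot be told apart.

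The value of kidney-specific cadherin was higher in the collecting duct and did not pass. Cdh16 (Ksp-cadherin, found on the lateral membranes of kidney tubules) stood at 15.22 in the collecting duct and at 14.51, 13.47 and 14.07 in the anlage. The collecting duct was 0.71 above the highest anlage array, array 1, and array 2 was the lowest. The difference was 1.20 ± 0.51 (SE), a 2.3-fold higher value (limma, unadjusted p = 0.0543, adjusted p = 1), with a 95% interval of −0.03 to 2.44. It ranged from 0.97 to 1.43 as anlage arrays were left out in turn. The gene has 1 probe set, with deposited signals of 36882 against 20284, 12878 and 18156. Both structures gave strong Cdh16 signal. Cdh17 (LI-cadherin, the related cadherin of intestine) was dim and not tested, at 8.84 against 8.09, 7.96 and 7.57.

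**Figure D3:**
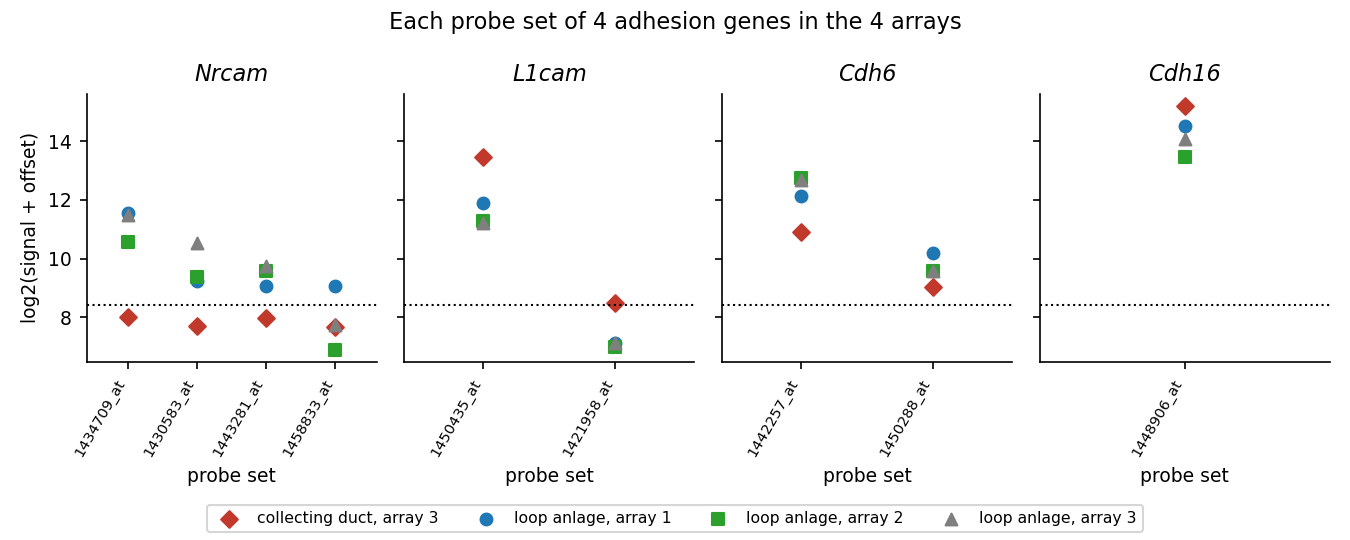
Log2(signal + 109.6) of every probe set of Nrcam, L1cam, Cdh6 and Cdh16 in each of the 4 arrays, with the dim limit of 8.416 as a dotted line. The collecting duct (red diamond) lies below all anlage arrays for 3 of 4 Nrcam probe sets and both of Cdh6, and above them for both of L1cam and the 1 of Cdh16.

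Cdh13 and Cdh23 lay inside the anlage range. Cdh13 (T-cadherin, held in the membrane by a lipid anchor) stood at 9.24 in the collecting duct and at 10.13, 7.61 and 8.22 in the anlage, so the anlage arrays differed among themselves by more than the groups did. Its difference of 0.59 ± 1.00 (SE) was 0.08 when anlage array 2 was left out and 1.36 when array 1 was. Cdh23, a cadherin of the tip links of inner-ear hair cells, was flat at 8.64 against 8.55 to 8.66, and its tip-link partner Pcdh15 was dim and not tested.

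Non-clustered protocadherins, which have more cadherin repeats than classical cadherins and no catenin-binding tail, had values on both sides. Of 11 genes 8 were tested, 2 of them above all 3 anlage arrays (Pcdh7 and Pcdh8) and 2 below (Pcdh17 and Pcdh20), near the 17.3% and 24.3% of all genes tested. Pcdh17 stood at 8.59 in the collecting duct and at 10.31, 10.59 and 11.13 in the anlage. Every anlage array was more than 1.7 above the collecting duct. The difference was −2.09 ± 0.57 (SE), a 4.25-fold lower value (limma, unadjusted p = 0.0107, adjusted p = 1). Its second probe set lay below all 3 anlage arrays too, at 7.86 against 8.24, 10.04 and 9.68. Endothelial marker signal, given with Cdh5, was also lower in the collecting duct, and its part in the Pcdh17 values was not tested.

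Pcdh7 stood at 12.61 in the collecting duct and at 9.51, 10.71 and 11.95 in the anlage. The anlage arrays spread over 2.44, and array 3 came within 0.66 of the collecting duct. The difference was 1.89 ± 0.95 (SE) and did not pass (limma, unadjusted p = 0.0947, adjusted p = 1), and averaging its 3 probe sets gave 1.13. A dimmer probe set also lay above all anlage arrays, at 9.23 against 6.80, 8.20 and 8.15, while the third was dim in every array.

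Pcdh8 (paraxial protocadherin, known from the segmenting mesoderm) stood at 10.74 against 9.85, 9.92 and 10.27, a difference of 0.72 ± 0.53 (SE). That probe set is of a type that can pick up related sequences. The other, dimmer one lay inside the anlage range with a difference of −0.09. When probe sets of that type were left out, Pcdh8 was under the dim limit and not tested. Pcdh12 (also called VE-cadherin-2, a protocadherin of endothelium) stood at 8.99 against 8.74, 11.11 and 10.50. As for Cdh5, anlage array 1 was as low as the collecting duct and arrays 2 and 3 were higher. Its difference of −1.13 ± 0.96 (SE) was −1.97 with anlage array 1 left out and −0.59 with array 2 left out.

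Pcdh20, near the dim limit, stood at 8.83 against 9.08, 9.73 and 9.32. Pcdh18, Pcdh19 and Pcdh9 lay inside the anlage range, with differences of −0.40, 0.51 and 0.08. As anlage arrays were left out in turn, these ran from −0.92 (without array 1) to −0.15 (without array 3) for Pcdh18, from 0.28 (without array 1) to 0.72 (without array 2) for Pcdh19 and from −0.29 (without array 2) to 0.51 (without array 1) for Pcdh9. Their other probe sets were less even. A second probe set of Pcdh18 lay below all anlage arrays at 9.62 against 11.19, 11.34 and 10.53, and one of Pcdh19 lay above them at 11.41 against 9.87, 10.23 and 10.49. Another of Pcdh19 lay below all anlage arrays, with a difference of −0.54. For Pcdh9 the other probe sets differed by −1.46, inside the anlage range, and by −1.51, dim and below all anlage arrays.

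In the L1 family the 2 tested members lay on opposite sides, Nrcam lower and L1cam higher in the collecting duct, and neither passed. These proteins have immunoglobulin and fibronectin domains outside the cell and bind ankyrin inside it. Nrcam stood at 8.01 in the collecting duct and at 11.57, 10.57 and 11.48 in the anlage. The collecting duct value was under the dim limit and all 3 anlage values were well above it. Deposited signals were 152 in the collecting duct and 2981, 1164 and 2669 in the anlage.

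The Nrcam difference was −3.20 ± 0.62 (SE), a 9.16-fold lower value (limma, unadjusted p = 0.00212, adjusted p = 1, 95% interval −4.72 to −1.67). Leaving out anlage array 1, 2 or 3 gave −3.20, −3.32 and −3.08, with adjusted p of 0.301, 0.11 and 1. Because the collecting duct value was dim, the size followed the offset added before the log, from −3.70 with a smaller offset to −2.35 with a larger one. The second and the third probe set also lay below all anlage arrays, at 7.70 against 9.23, 9.38 and 10.54 and at 7.98 against 9.05, 9.59 and 9.74. The fourth, dim in all but anlage array 1, differed by −0.22, and the mean of all 4 gave −1.73.

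L1cam showed the reverse. It stood at 13.48 in the collecting duct and at 11.89, 11.28 and 11.23 in the anlage, and the anlage arrays lay within 0.66 of each other. Deposited signals were 10723 against 3621, 2240 and 2225. The difference was 2.02 ± 0.54 (SE), a 4.05-fold higher value (limma, unadjusted p = 0.00981, adjusted p = 1, 95% interval 0.69 to 3.35), and ranged from 1.84 to 2.32 as anlage arrays were left out in turn. Its second probe set reached the dim limit only in the collecting duct, at 8.47 against 7.12, 6.97 and 7.12. The remaining members of the family, Chl1 and Nfasc, were dim and not tested, at 7.90 against 8.18 to 9.32 and at 8.75 against 7.53 to 8.30.

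Alcam and Cntn1 differed in opposite directions, and the brightest probe set of Ncam1 lay inside the anlage range. Alcam (activated leukocyte cell adhesion molecule, present on many epithelia) stood at 15.84 in the collecting duct and at 15.41, 14.06 and 14.68 in the anlage. The collecting duct lay above all 3 in this and in 2 more of its 5 probe sets, by as much as 1.23 ± 0.45 (SE) over the anlage mean. The difference of the brightest was 1.12 ± 0.55 (SE) and did not pass (limma, adjusted p = 1). The fifth had the opposite sign (−0.97), which brought the mean over all 5 to 0.53.

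Cntn1 (contactin-1, a lipid-anchored partner of L1-type molecules) stood at 8.03 in the collecting duct and at 9.12, 9.81 and 10.89 in the anlage. All 3 anlage arrays were higher, array 3 the most. The difference was −1.91 ± 0.77 (SE) (limma, unadjusted p = 0.0476, adjusted p = 1). The other 2 probe sets lay inside the anlage range with differences of −0.54 and 0.67, and the mean of all 3 gave −0.60. Without anlage array 3 the brightest probe set was a different one and the difference was 0.47, while the same probe set gave −1.44.

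Ncam1 (neural cell adhesion molecule, known in kidney from condensing mesenchyme and early nephrons) stood at 13.60 in the collecting duct and at 13.39, 14.54 and 13.98 in the anlage. In this brightest probe set anlage array 2 was the highest and array 1 the lowest of the 4. Its difference of −0.37 ± 0.55 (SE) was −0.08 when anlage array 2 was left out, −0.66 when array 1 was and −0.73 with arrays scaled to a common median. Of its 7 probe sets 4 reached the dim limit, with differences from −1.15 to 0.09. Among these, another was also highest in anlage array 2 and lay below all anlage arrays, at 11.05 in the collecting duct against 11.81, 13.52 and 11.28. The remaining ones lay inside the anlage range and were highest in anlage array 1 (11.60 and 11.70). Anlage array 2 also had the highest summed signal of the 6 cap mesenchyme markers, 21490 against 7661 and 5819 in the other two anlage arrays and 8689 in the collecting duct, and of the 5 podocyte markers, 27288 against 9184, 9105 and 9059. All cap mesenchyme markers but Osr1 were highest in anlage array 2, and their sum follows the brightest, Eya1, at 13.69 there. The lowest of the cap mesenchyme and podocyte markers was Cited1 in anlage array 3, at 6.94. The part of these cell types in the Ncam1 values was not tested.

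Epcam was bright in all 4 arrays. It stood at 15.37 in the collecting duct and at 14.73, 15.29 and 14.89 in the anlage, above all 3 by 0.08 or more on this scale. In the deposited signals, before quantile normalization, it was not above all 3, at 40385 against 23548, 41363 and 32902. The difference was 0.40 ± 0.37 (SE, 95% interval −0.51 to 1.31), and 0.08 with arrays scaled to a common median. Its second probe set, a type that can pick up related sequences, lay inside the anlage range with a difference of −0.08.

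Agreement between probe sets varied by gene. Of 14 genes with 2 or more probe sets at or above the dim limit, 5 had the same sign in all of them (Nrcam, Cdh6, Pcdh17, Cdh3 and Pcdh18, all lower) and 9 had mixed signs, Alcam, Cntn1, Ncam1 and Epcam among them. The limit is set on the mean of 1 collecting duct and 3 anlage arrays and so favours probe sets bright in the anlage. The second probe set of L1cam, higher like its first, was left out of this count by it. Over all 100 member probe sets, 19% lay above all 3 anlage arrays and 28% below, beside 19.8% and 23% of all 45037 probe sets.

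**Figure D4:**
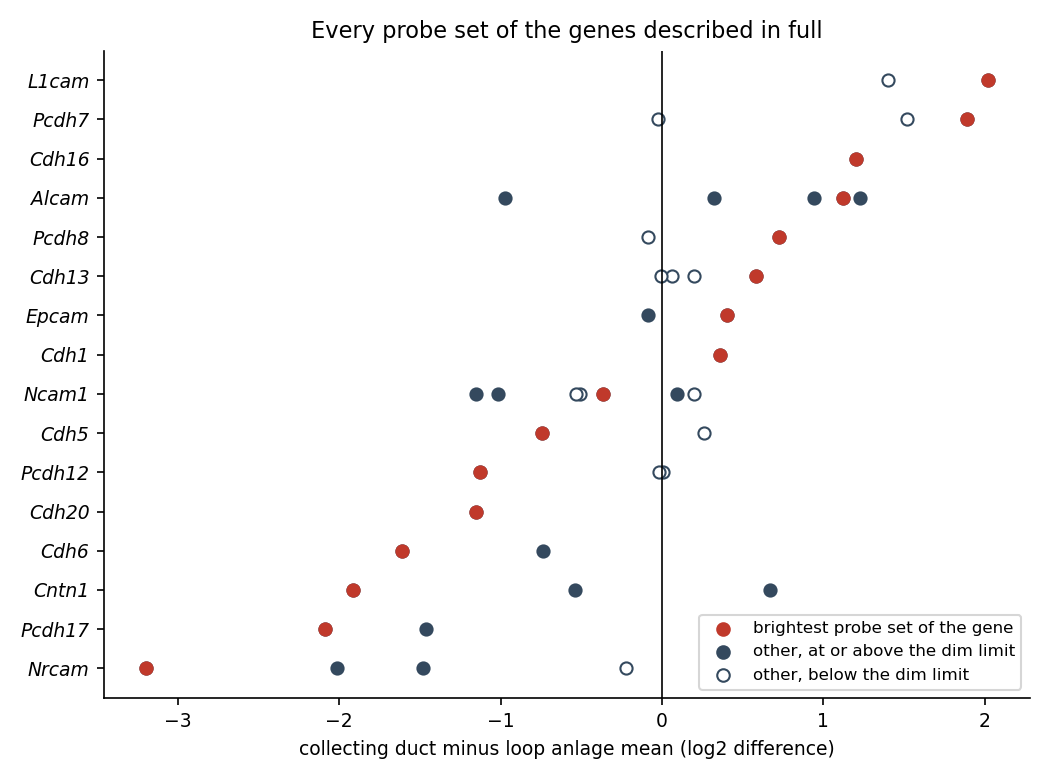
Log2 difference, collecting duct minus anlage mean, of every probe set of the 16 genes given in full (rows), with the brightest probe set of each gene in red, others at or above the dim limit filled and those below it open. All Nrcam, Cdh6 and Pcdh17 points lie left of 0 and both L1cam points lie right of it, while Alcam, Cntn1 and Ncam1 have points on both sides.

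The 13 genes under the dim limit were Cdh7, Cdh8, Cdh9, Cdh10, Cdh17, Cdh18, Cdh19, Cdh26, Pcdh1, Pcdh10, Pcdh15, Chl1 and Nfasc. Many of these are best known from the nervous system. Their collecting duct values lay between 6.83 (Pcdh1) and 8.84 (Cdh17). A gene bright in the collecting duct array alone could fail this limit, since it is set on the mean of all 4 arrays.

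No gene passed in any list of proteins that work with these molecules. Since 0% of all genes tested passed, these counts of 0 do not set the lists apart from other genes. In the list of adherens junction catenins and linkers, 0 of 16 tested genes passed in either direction. Of these genes 7 had a higher value (45.1% of all genes tested did), and the median difference was −0.14. Ctnnb1 (beta-catenin) differed by −0.26, Ctnna1 (alpha-catenin) by 0.24 and Ctnnd1 (p120-catenin) by −0.31. The widest differences in the list were Arvcf, a p120 relative, at 11.63 against 11.03, 10.04 and 10.06, Ctnnal1 at 10.78 against 11.86, 12.42 and 11.25, and the scaffold Iqgap1 with 0.72. Among 5 tested desmosomal genes 0 passed and 3 lay above all anlage arrays (17.3% of all genes tested did), the plaque proteins Dsp (0.96) and Pkp2 (0.74) and the desmosomal cadherin Dsg2 (0.97).

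In the list of large, flamingo and cadherin-related genes 0 of 13 passed, 4 lay above all anlage arrays and 5 below (17.3% and 24.3% of all genes tested), with Cdhr1 at −1.74, Fat3 at 1.49 and Cdhr5, a microvillar protocadherin, at −1.19. Nectins, Cadm and JAM proteins, the immunoglobulin molecules of epithelial junctions, had 0 of 12 passing and a median of −0.02, with 4 above all anlage arrays and 3 below (17.3% and 24.3% of all genes tested). Those above were Nectin3 (1.20), Nectin1 (1.08), the junctional molecule F11r (1.01) and Nectin2 (0.66). Those below were Jam2 (−0.91), Esam (−0.67), which is also one of the endothelial markers, and Jam3 (−0.54).

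The list of other immunoglobulin adhesion molecules had a lower median than all genes. In it 0 of 19 passed and 6 had a higher value (45.1% of all genes tested did). Of the 19, 3 lay above and 8 below all anlage arrays (17.3% and 24.3% of all genes tested). The median was −0.75, against −0.065 for all genes tested. Vcam1 stood at 9.11 against 9.52, 11.90 and 11.72, and the guidance receptor Robo1 at 9.04 against 10.90, 11.30 and 10.69. Opcml went the other way by 1.87. Ncam2 was under the dim limit and not tested, at 9.43 in the collecting duct against 6.90, 6.99 and 8.51 in the anlage. Of the other dim genes in the list, Cntn2 lay above all anlage arrays, Pecam1 below and Bcam, Cntn5 and Dscaml1 inside their range. The list holds molecules of endothelium and leukocytes, whose marker signal was lower in the collecting duct array. Of these molecules Pecam1 was dim and not in the median, and Vcam1 lay below all anlage arrays. Icam1, Icam2 and Mcam lay inside the anlage range. The rest of the 8 genes below all anlage arrays were Robo1, Igsf3, Dscam, Lsamp, Igsf8 and the contactins Cntn3 and Cntn4. The part of endothelial cells and leukocytes in the median was not tested.

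Ankyrins and other partners of the L1 family had 0 of 13 passing and a median of 0.17. Ank2 and moesin (Msn) differed by −1.43 and −1.24 and lay below all anlage arrays, and Cntnap2, a contactin-associated protein, differed by 1.35 and lay above them. Regulators of E-cadherin transcription had 0 of 12 passing and a median of −0.15. The activator Grhl2 differed by 0.71, the repressor Zeb1 by −0.58 and Grhl1 by −0.55. Enzymes of cadherin shedding and turnover had 0 of 16 passing and a median of −0.01, with the receptor phosphatases Ptprb and Ptprk at −1.39 and −0.99 and the phosphatase Ptpn1 at 0.70.

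**Figure D5:**
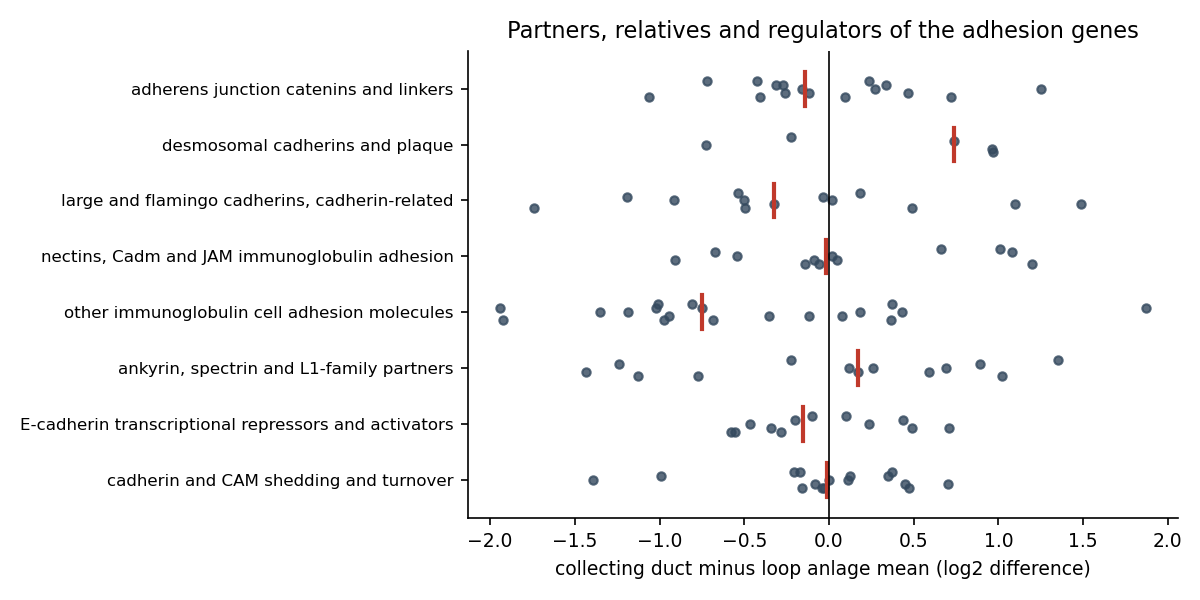
Log2 difference, collecting duct minus anlage mean, of each tested gene (points) in 8 lists of partners, relatives and regulators, with the median of each list as a red bar. The medians run from −0.75 for other immunoglobulin adhesion molecules to 0.74 for desmosomal genes, the latter from 5 genes.

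Markers of other cells the laser could have caught differed within the anlage group. The summed signal of 8 muscle markers was 7445 in the collecting duct against 37456, 13135 and 106038 in the anlage, while Cdh15 was flat. That of 10 stromal markers was 124072, 130351 and 277943 against 129824. Such a sum follows its brightest marker, here Col3a1, at 17.16 in anlage array 3. Lum, Dcn, Col1a1, Col3a1, Pdgfra and Tcf21 were highest in that array, and Pdgfrb, Tnc, Meis1 and Foxd1 were not. The brightest probe sets of Cdh11, at 12.13, and Cntn1, at 10.89, were also highest in anlage array 3. The second probe set of Cdh11 was highest in array 2, at 11.97 against 11.51 in array 3, and of the other 2 of Cntn1 one was highest in array 3 (9.85) and one in array 1 (9.57). The muscle gene Cnn1 was near the lowest value of the scale, 6.87, in anlage array 1. Their part in the adhesion gene values was not tested.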

How the data were processed

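Probe set signals were measured on 4 arrays of laser-captured E15.5 kidney structures, 1 of cortical collecting duct and 3 of loop of Henle anlage, grouped by the source named in the labels. The deposited intensity values are on a linear scale and were made by the authors with GCOS, per the submitters' processing notes. No version or algorithm is named in the sources used here. The mean after trimming 2% at each end was 1500 on every array.

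Arrays were quantile normalized and the values used were log2(signal + 109.6), where the offset is the 25th percentile. After 64 control probe sets were left out, 45037 remained, of which 932 had several gene symbols and 9160 no entry in the platform table. Neither kind was tested by gene. The brightest probe set stood for a gene, and genes with a mean under 8.416 (40th percentile) were not tested. limma (version 3.58.1, R 4.3.3) was run as a two-sided lmFit and eBayes fit with an intensity trend, Benjamini-Hochberg over 12642 genes, with 2 residual and 4.04 prior degrees of freedom. The residual degrees come from the anlage arrays, which assumes that the collecting duct array varies like them. The number of arrays limits the precision. No genome build is named for the array, so the only coordinates given are those of the RefSeq promoters.

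Members, gene lists and the rule for genes given in full (Cdh1, Cdh6, Cdh16 and Nrcam, then the largest differences up to 14, then the 4 brightest) were chosen with earlier results of these data known. Other members, the second probe sets, the catenins in the partner lists and the motifs were chosen after values were seen. Alternatives were another normalization, offset, filter, choice of probe set or variance prior, and leaving out each anlage array.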

Additional observations from a re-analysis of the deposited data

How the results depend on the processing

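limma called 0 members at the adjusted threshold under every alternative tried, and the 16 differences given in full kept their sign except those listed here. Of the other tested members, Cdh2, Cdh4, Cdh11, Cdh15, Cdh22, Cdh23 and Pcdh9, all inside the anlage range, had either sign depending on the setting. At an unadjusted p under 0.05 the count of higher members was 0 with arrays scaled to a common median and 2 when all probe sets of a gene were averaged, in place of 1, and ran from 1 to 3 as anlage arrays were left out. The count of lower members ran from 1 to 6. Without the filter 10 members lay below all anlage arrays in place of 6, since all 40 genes then entered, and with an anlage array left out this count ran from 5 to 13, a range that is easier to leave when it spans fewer arrays. Signs turned for Cntn1 without anlage array 3 (0.47, another probe set being brightest, with −2.45 at the other end of the range) and in single probe sets of Cntn1 (0.67), Pcdh7 (−0.024), Pcdh12 (0.006), Alcam (−0.97), Cdh5 (0.26), Pcdh8 (−0.087), Cdh13 (−0.007), Epcam (−0.084) and Ncam1 (0.197 and 0.091). The cause was not tested. The fits with Cntn1 on a fixed probe set were chosen after seeing the data. No paired analysis was possible because the groups share only replicate number 3. Signal over background could not be read without detection calls, so the dim limit is a rank and not a measure of absence.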
